A study of Mus musculus with 13 samples.

Results

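The renin-angiotensin system is a hormone cascade that sets blood pressure and salt balance, and the kidney both supplies and answers it. Renin, released by cells of the vessel wall next to the glomerulus, cuts angiotensinogen into angiotensin I, and the converting enzyme then makes the active peptide angiotensin II. Other peptidases trim these peptides to shorter ones, and the products act on membrane receptors that raise or lower vascular tone and sodium reabsorption. Open chromatin was examined at 8 genes of this cascade, namely the substrate Agt, the protease Ren1, the peptidases Ace, Enpep and Mme, and the receptors Agtr1a, Agtr2 and Mas1. Their members were the peaks of the peak list that overlapped the gene body or the 2 kb upstream of it (mm10, GENCODE M21), which gave 71 of 300755 peaks.

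Nuclei came from whole kidneys of mice labelled P0, P21 (3 weeks) and P56 (8 weeks), profiled by snATAC-seq, in which a transposase tags open DNA inside single nuclei. There were 2 samples at P0, whose protocol names animals of 1 day, and 3 adult samples, 1 at P21 and 2 at P56, from perfused mice. The methods also give a smaller lysis volume for P0 kidneys than for the older ones. Stage and preparation thus cannot be told apart in the comparisons of P0 with adult. The labels of these samples gave no genotype, strain, treatment or sex, and the methods name wild type C57BL/6 mice for the single-cell RNA samples only. Nothing in the labels says how many animals stand behind a sample, so p-values measure the spread between samples. A total of 27652 nuclei lay in the 13 main clusters of the deposited annotation, named NP (nephron progenitors), Podo (podocytes), PCT and PST (proximal convoluted and straight tubule), LOH (loop of Henle), DCT and CNT (distal and connecting tubule), PC and IC (principal and intercalated cells), Endo, Immune, Stroma 1 and Stroma 2. All 23 marker genes checked had their highest mean share of open nuclei in their own cluster.

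Depth differed between samples and clusters. Median open peaks per nucleus ranged from 8547.5 to 10199 in PST at P0 and reached 12173 in PST of P56 replicate 2, and they were lower in each adult sample than in each P0 sample in LOH, DCT, CNT, PC, IC, Endo, Immune, Stroma 1 and Stroma 2. Shares of nuclei are not scaled for this depth, whereas open calls per 10000 open calls of the same cluster and sample are. The adult samples held 52, 90 and 53 NP nuclei, 47, 157 and 39 Podo nuclei and 90 to 107 Stroma 1 nuclei. In all, 472 barcodes occurred in 2 libraries and 5 in 3.

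In mm10 the annotation places Agt (ENSMUSG00000031980.9) on chromosome 8 from 124556534 to 124569706 on the minus strand, Ren1 (ENSMUSG00000070645.5) on chromosome 1 from 133350510 to 133360325 on the plus strand, Ace (ENSMUSG00000020681.14) on chromosome 11 from 105967945 to 105989964 on the plus strand, Enpep (ENSMUSG00000028024.14) on chromosome 3 from 129269175 to 129332720 on the minus strand. It places Mme (ENSMUSG00000027820.12) on chromosome 3 from 63241537 to 63386030 on the plus strand, Agtr1a (ENSMUSG00000049115.15) on chromosome 13 from 30336441 to 30382867 on the plus strand, Agtr2 (ENSMUSG00000068122.10) on chromosome X from 21484544 to 21489164 on the plus strand and Mas1 (ENSMUSG00000068037.11) on chromosome 17 from 12841079 to 12868143 on the minus strand. Of the 71 peaks, 49 were intronic, 11 overlapped an exon, 9 covered an annotated transcript start and 2 lay upstream. Enpep held 20 peaks, Mme 18, Agtr1a 13, Ace 6, Ren1 and Mas1 5 each, Agt 3 and Agtr2 1, against a median of 3 over all genes with a peak. A peak is named below by the distance of its centre from the annotated start of its gene. The results turn on a few elements, whose central 300 bases are given here from the RefSeq GRCm38 genome on the strand of the gene. The first was most open in adult Stroma 2, upstream of the Ren1 window (chr1:133347903-133348202). The second was the promoter-proximal element of Agt, most open in PST (chr8:124569843-124570142).
Ren1 -2.5 kb: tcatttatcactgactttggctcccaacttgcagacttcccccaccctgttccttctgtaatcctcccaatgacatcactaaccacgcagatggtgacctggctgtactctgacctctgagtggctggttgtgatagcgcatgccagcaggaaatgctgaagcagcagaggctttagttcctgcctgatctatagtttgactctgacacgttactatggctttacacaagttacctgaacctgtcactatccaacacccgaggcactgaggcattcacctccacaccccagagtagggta
Agt -0.3 kb: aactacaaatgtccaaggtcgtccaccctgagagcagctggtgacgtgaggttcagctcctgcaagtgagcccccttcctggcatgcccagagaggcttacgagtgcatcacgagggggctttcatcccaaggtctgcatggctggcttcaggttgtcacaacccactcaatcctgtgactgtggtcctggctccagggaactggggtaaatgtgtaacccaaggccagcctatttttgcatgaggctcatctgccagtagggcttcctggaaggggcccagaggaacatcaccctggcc

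Enpep is shown by 3 intronic elements, since each had its highest P0 mean in another cell type, in podocytes (chr3:129321818-129322117), endothelium (chr3:129296067-129296366) and Stroma 2 (chr3:129286988-129287287).
Enpep +10.8 kb: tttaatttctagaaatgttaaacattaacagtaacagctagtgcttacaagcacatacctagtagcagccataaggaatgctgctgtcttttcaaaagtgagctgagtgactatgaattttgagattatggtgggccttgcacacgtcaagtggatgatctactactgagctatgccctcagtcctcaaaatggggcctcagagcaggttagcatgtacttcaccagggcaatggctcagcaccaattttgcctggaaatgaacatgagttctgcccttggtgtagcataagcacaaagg
Enpep +36.5 kb: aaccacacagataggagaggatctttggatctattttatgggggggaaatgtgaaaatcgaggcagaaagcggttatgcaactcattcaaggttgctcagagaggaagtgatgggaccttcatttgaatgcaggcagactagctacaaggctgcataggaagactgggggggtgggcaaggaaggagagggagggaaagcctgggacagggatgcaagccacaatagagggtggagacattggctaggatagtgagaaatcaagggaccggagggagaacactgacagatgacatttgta
Enpep +45.6 kb: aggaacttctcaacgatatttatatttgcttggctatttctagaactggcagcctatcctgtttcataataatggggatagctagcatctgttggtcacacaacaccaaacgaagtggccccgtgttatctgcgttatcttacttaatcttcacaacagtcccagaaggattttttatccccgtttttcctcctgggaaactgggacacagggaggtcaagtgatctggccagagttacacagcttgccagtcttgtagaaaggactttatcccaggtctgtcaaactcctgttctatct

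The last is an intronic element of Mme that was most open in PST (chr3:63349163-63349462), shown because it carries 1 of the searched words, in capitals, a match to the AP-1 word.
Mme +107.8 kb: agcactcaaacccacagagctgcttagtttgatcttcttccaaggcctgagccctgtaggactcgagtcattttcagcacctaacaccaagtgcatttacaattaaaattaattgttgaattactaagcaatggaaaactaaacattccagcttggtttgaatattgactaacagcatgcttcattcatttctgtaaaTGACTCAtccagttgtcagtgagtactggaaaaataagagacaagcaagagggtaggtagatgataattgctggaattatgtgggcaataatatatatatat

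Words of 5 factors known from the kidney or from renin cells were searched on both strands in the central 300 bases of the 71 peaks. The RBPJ word GTGGGAA was found in 8 peaks (11.3%, against 6.85% of 300693 peaks of the series), and the AP-1 word TGANTCA in 4 (5.63%, against 10.5%). The HNF1 word GTTAATNAT occurred in 1 peak, Agt +2.3 kb (1.41%, against 1.48%). The cAMP response element TGACGTCA was in none of them and in 0.379% of all peaks, and the HNF4 words CAAAGTCCA and CAAAGGTCA were in none and in 0.802% and 0.848% of all peaks. Median GC content was 45.7% in the members and 46.7% over all peaks.

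Each gene was first described by the share of nuclei with at least 1 of its peaks open (plot of shares by cluster and sample). PST had the highest share in all 5 samples for Agt, Ace and Mme, that is for 3 of the 7 genes that passed the filter, while 1 cluster led in all 5 samples for 13.8% of 27681 genes. These were 3815 genes, and the leading cluster was PST for 1801 of them. Per 10000 open calls, 1 cluster led in all 5 samples for 4 of the 7, PST for Agt and Ace, podocytes for Enpep and Stroma 2 for Agtr1a, against 15.6% of the same 27681 genes. With each nucleus thinned to 1000 open peaks, PST led in 5 samples for Agt and in 4 for Ace, podocytes in 5 for Enpep and Stroma 2 in 4 for Agtr1a. Among single peaks open in at least 100 nuclei, 16 of 54 member peaks were led by 1 cluster in all 5 samples, against 14.3% of 201132 peaks. Since the clusters were made from the open chromatin of the same nuclei, levels were not tested between clusters.

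**Figure D1:**
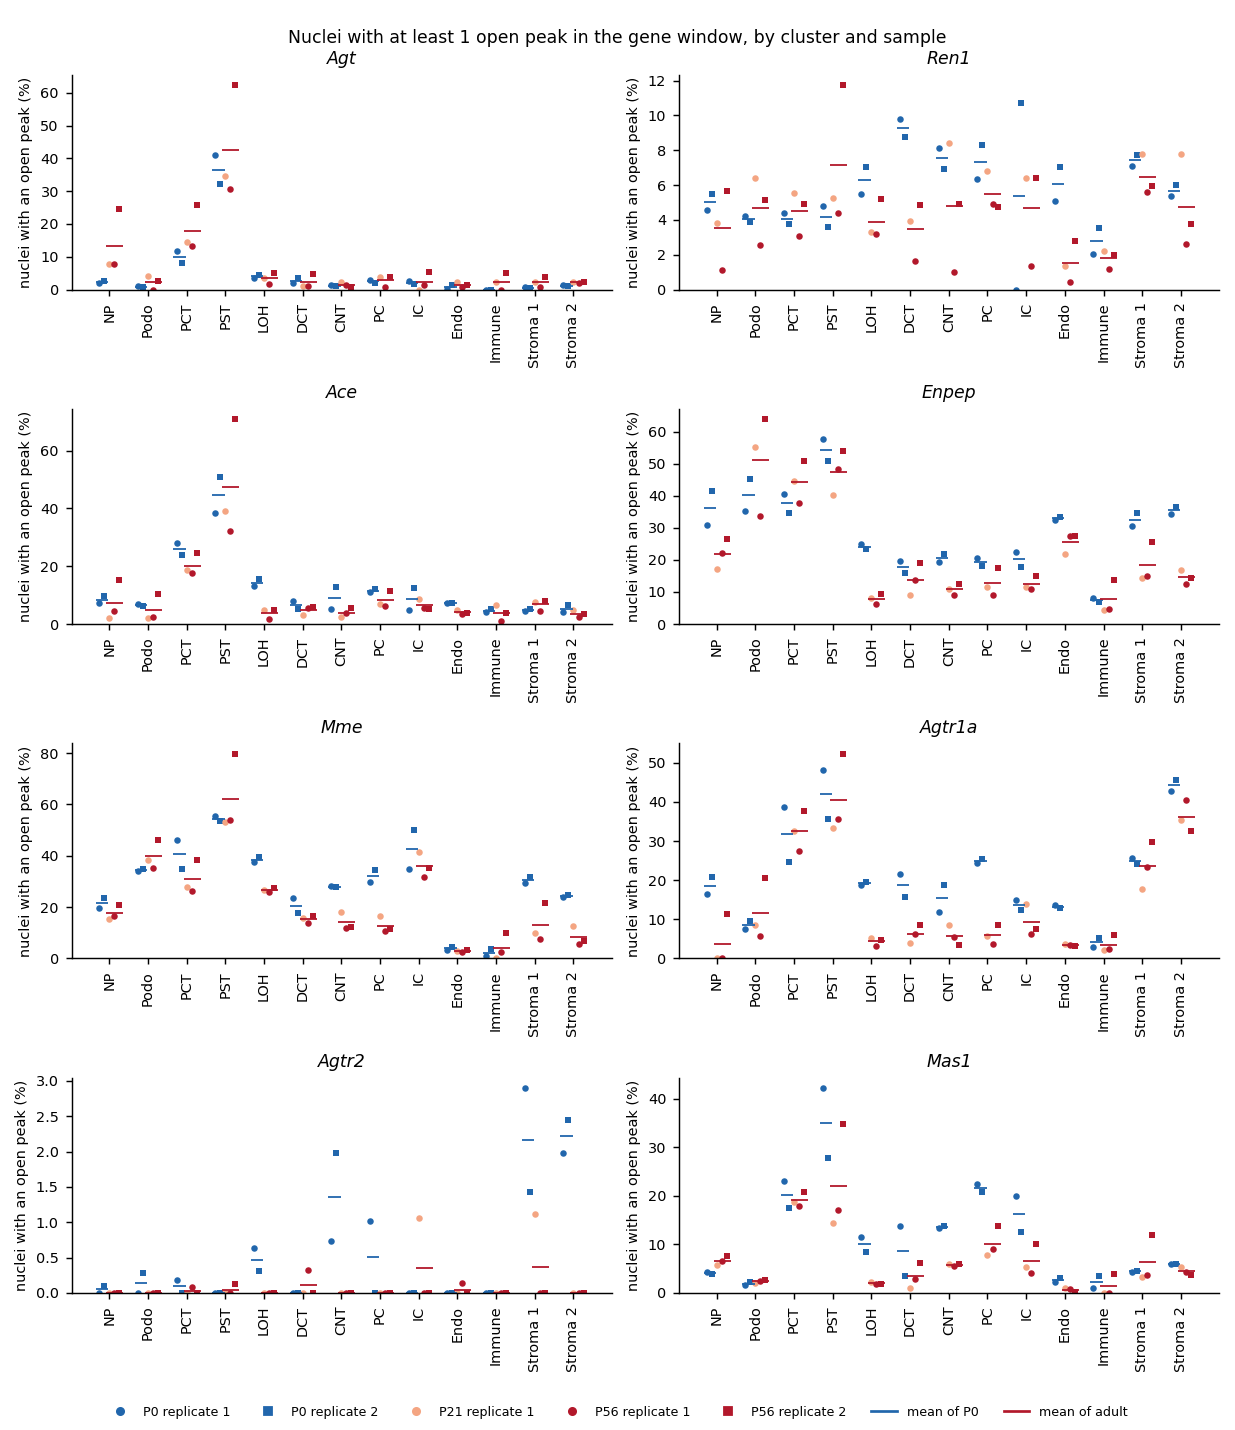
Share of nuclei (%) with at least 1 open peak in the window of each gene, on the y axis, for the 13 clusters on the x axis; points are the 5 samples, bars the means of the 2 P0 and 3 adult samples, and y scales differ between genes. Agt reached 62.4% in PST of P56 replicate 2 and at most 5.32% outside PST, PCT and NP, whereas Agtr2 reached at most 2.90%.

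Agt, which encodes the only known precursor of the angiotensins, was open mainly in proximal tubule. In PST its window was open in 41.0% and 32.1% of nuclei in the P0 samples and in 34.6%, 30.7% and 62.4% in the P21 and P56 samples. In PCT the shares were 11.7% and 8.08% at P0 and 14.6%, 13.3% and 25.9% in adult. Each adult PCT sample lay above both P0 samples, and PST lay above PCT in every pair of samples within a stage. LOH, next to PCT at P0, had 3.62% and 4.45%. Adult NP followed PCT with 7.69%, 7.78% and 24.5%, against 1.94% and 2.59% in P0 NP, but was too low in counts for the test.

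Most of this signal came from the element just upstream of the start, Agt -0.3 kb, which was open in 2002 nuclei. It was open in 32.5% and 25.0% of PST nuclei at P0 and in 28.9%, 19.8% and 48.0% in adult. In PCT it was open in 7.50% and 4.85% at P0 and in 13.7%, 11.8% and 23.9% in adult. The intronic peak Agt +2.3 kb also led in PST, with a mean of 12% at P0 and 18.4% in adult.

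Ren1 encodes renin, the enzyme whose release limits the cascade. Its window as a whole was open at similar shares in many clusters, with means between 2.76% and 9.29% at P0 and between 1.52% and 7.14% in adult, and a different cluster led in each sample. Per 10000 open calls Stroma 1 led in 4 of the 5 samples and IC in P0 replicate 2, but with each nucleus thinned to 1000 open peaks Stroma 1 led in none and a different cluster led in each sample (DCT, Endo, IC, PC and Podo). Much of that signal came from the intronic peak Ren1 +3.2 kb, which was open in 956 nuclei and had its highest mean in DCT at P0 (7.43%) and in PST in adult (6.80%). The peak Ren1 +1.4 kb, over the start of another transcript, was open in 141 nuclei. Its highest mean was in Endo at P0 (3.18%) and in PC in adult (1.25%). The exonic peak close to the annotated start, Ren1 +0.2 kb, was open in 158 nuclei and led in Stroma 1 in all 5 samples. It was open there in 4.49% and 3.87% of nuclei at P0 and in 3.33%, 1.87% and 1.98% in adult. Per 10000 open calls the values were 0.0811 and 0.0590 at P0 and 0.102, 0.0672 and 0.0373 in adult, so that the stages overlapped once scaled for depth. Over the pooled nuclei this was 50 of 1181 at P0 (4.23%, 95% exact binomial interval 3.16 to 5.54) and 7 of 298 in adult (2.35%, 0.950 to 4.78), intervals that overlap and cover counting error only. In Stroma 2 it was open in 52 of 2454 nuclei at P0 and 8 of 1085 in adult. In podocytes it was open in 0 of 669 P0 nuclei, which allows a share of up to 0.448%. The counts were too low for the test.

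The peak at 2.5 kb upstream of Ren1 (chr1:133347774-133348330) lay outside the 2 kb window and was chosen after its values were seen, among the peaks between 2 and 5 kb. In Stroma 2 it was open in 3.36% and 2.45% of nuclei at P0 and in 16.0%, 4.30% and 10.5% in adult. All 3 adult samples lay above both P0 samples, and P21 was the highest. In open calls the log2 change from P0 to adult was 2.51 (SE 0.345, adjusted p = 2.73e-06, edgeR), and it kept its call in every setting in which the peak was tested. In Stroma 1 the shares were 1.88% and 3.26% at P0 and 3.33%, 3.74% and 6.93% in adult, without a test at these counts. A smaller change was called in PCT (log2 1.44, SE 0.480, adjusted p = 0.0333), where means were 1.54% and 3.27%, and was lost without P0 replicate 1 (1.57), P0 replicate 2 (1.38) or P21 replicate 1 (0.94) and in DESeq2 (1.46, adjusted p = 0.0511).

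Markers of mural and renin cells were read beside these values. Of the 9 markers listed (Akr1b7, Tbx18, Acta2, Myh11, Tagln, Notch3, Rgs5, Cnn1 and Cspg4), 7 had their highest mean share in a stroma cluster. Their summed shares in Stroma 2 were 239% and 252% at P0 and 119% to 140% in adult. In Stroma 1 they were 151% and 175% at P0 and 92.2% to 150% in adult. Such sums were not particular to stroma. PST had 149% and 145% at P0 and 95.1% to 171% in adult, and NP had 141% and 172% at P0. The sums are not scaled for depth, and median open peaks in Stroma 2 were 6930 and 7624 at P0 and 3311 to 3465.5 in adult. In Stroma 2 the log2 change was -2.07 for Tbx18 (adjusted p = 5.12e-05, edgeR), a transcription factor of mural precursors, and -0.67 for Acta2 (adjusted p = 0.0183), the smooth muscle actin. In Stroma 2, 3 of the 8 tested fell and none rose, and Tagln had 0.43 (adjusted p = 0.0553). In Stroma 1, Tagln (log2 1.03, adjusted p = 0.00322) and Myh11 (0.78, adjusted p = 0.0251), genes of the smooth muscle contractile apparatus, rose and Tbx18 fell (-3.26), of 7 tested. The part of cell composition in the Ren1 values was not tested.

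**Figure D2:**
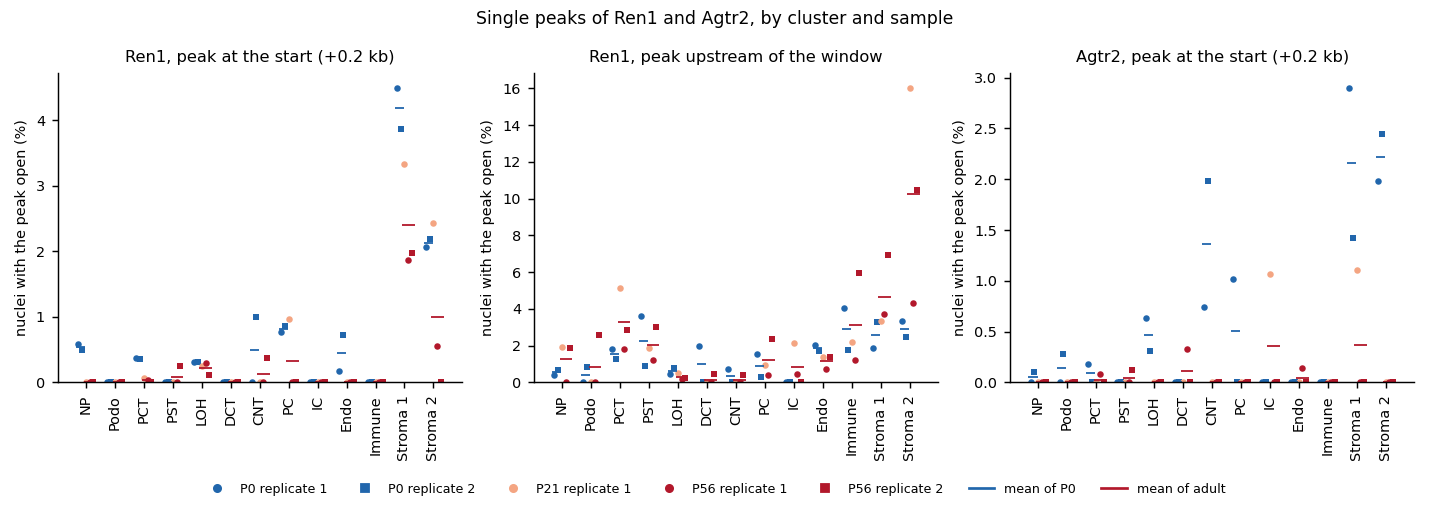
Share of nuclei (%) with a single peak open, on the y axis, by cluster on the x axis, for the exonic Ren1 peak at +0.2 kb, the Ren1 peak 2.5 kb upstream and the Agtr2 start peak; points are the 5 samples and bars the stage means. The upstream Ren1 peak reached 16.0% in Stroma 2 at P21, and the Agtr2 peak was open in none of the adult Stroma 2 nuclei.

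Ace encodes the converting enzyme that makes angiotensin II, and is known as a brush border enzyme of proximal tubule and as an endothelial enzyme. In PST its window was open in 38.6% and 50.9% of nuclei at P0 and in 39.1%, 32.3% and 70.9% in adult, and in PCT in 28.0% and 23.9% at P0 and in 18.7%, 17.5% and 24.4% in adult. LOH followed PCT at P0, with 13.2% and 15.5%, and fell to between 1.82% and 4.86% in adult. Endothelial nuclei had 7.26% and 7.28% at P0 and 3.51% to 4.98% in adult. Per 10000 open calls, which are scaled for depth, the endothelial order was the opposite, with 0.108 and 0.123 at P0 and 0.190, 0.142 and 0.142 in adult. That change was not called (log2 0.44, adjusted p = 0.283, edgeR). The 6 Ace peaks also lie within the overlapping gene Gm11651, so that they cannot be assigned to Ace alone.

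The Ace elements differed in their change. The start peak, Ace +0.2 kb, was open in 26.9% of PST nuclei at P0 and 18.4% in adult on average, and in PCT in 15.4% and 13.6% at P0 and in 5.93%, 4.55% and 7.09% in adult. The peak at +7.6 kb, which covers the start of another transcript, had means of 25.6% and 32.3% in PST and of 11.2% and 13.7% in PCT. The intronic peak +15.3 kb was open in 1.20% and 0% of PST nuclei at P0 and in 4.51%, 2.89% and 21.9% in adult. No P0 sample overlapped an adult one at that peak, although only 1 of 195 P0 PST nuclei had it open.

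Enpep encodes aminopeptidase A, which turns angiotensin II into angiotensin III. It was open in many clusters, and PST, podocytes and PCT were the first 3 at both stages. In podocytes the shares were 35.2% and 45.3% at P0 and 55.3%, 33.8% and 64.1% in adult. In PST they were 57.8% and 50.9% at P0 and 40.2%, 48.4% and 53.9% in adult. Podocytes and PST did not separate in adult, but per 10000 open calls podocytes led in all 5 samples, with means of 1.19 at P0 and 1.64 in adult against 0.943 and 0.893 in PST.

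The Enpep window was split among elements of different clusters (heat map of peak shares). The peak at +10.8 kb led in podocytes in all 5 samples, with 14% and 17.7% at P0 and 12.8%, 8.92% and 20.5% in adult. The peak at +36.5 kb was open in 13.5% and 13.8% of endothelial nuclei at P0 and in 8.14%, 13.1% and 13.7% in adult, while no other cluster exceeded a mean of 1.40%. The peak at +45.6 kb was open in 14.7% and 15.6% of Stroma 2 nuclei at P0 and in 3.40%, 4.67% and 3.78% in adult, and Stroma 1 came next with means of 6.48% and 2.74%. The peaks +35.4 kb and +41.6 kb led in PST in all 5 samples. The start peak +0.1 kb was shared, with its highest P0 mean in Stroma 1 (19.2%) and its highest adult mean in PCT (25.4%). The peaks +10.8 kb and +45.6 kb were singled out after their values were seen.

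**Figure D3:**
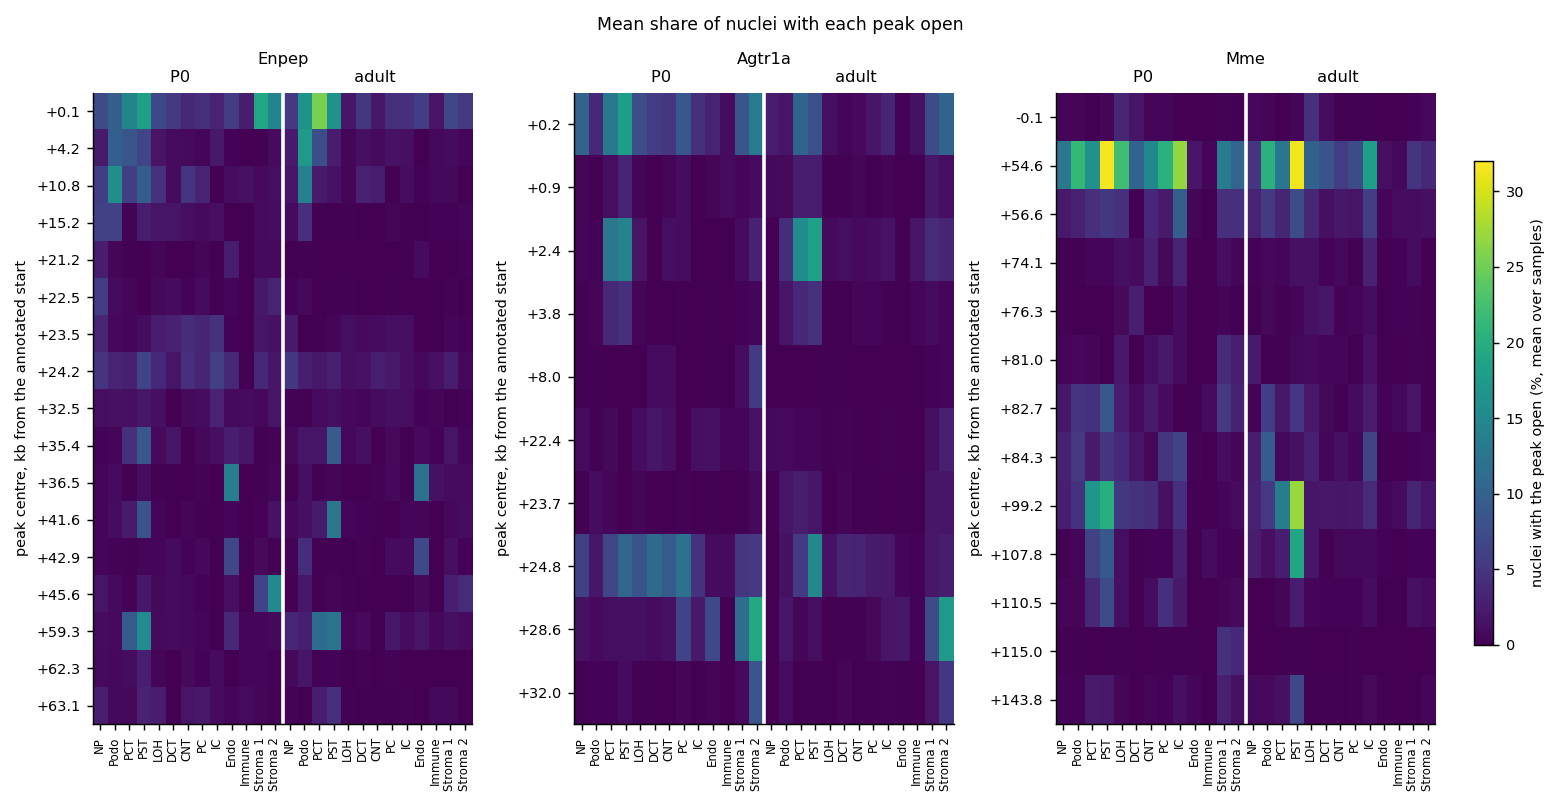
Mean share of nuclei (%) with each peak open, as colour, for the peaks of Enpep, Agtr1a and Mme open in at least 100 nuclei; rows are peaks by the distance of their centre from the annotated start, in kb, and columns are the 13 clusters at P0 (left of the white line) and in adult (right). Enpep +36.5 kb stands out in Endo, Enpep +45.6 kb in Stroma 2 at P0, and Agtr1a +28.6 kb in Stroma 2 at both stages.

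Mme encodes neprilysin, which cleaves angiotensins and natriuretic peptides. PST led in all samples, with 55.4% and 53.6% at P0 and 53.0%, 53.9% and 79.8% in adult, but PST nuclei were also the deepest in 4 of the 5 samples, and per 10000 open calls podocytes led in 2 of the 5 samples. With nuclei thinned to 1000 open peaks PST led in 1 sample, podocytes in 3 and IC in 1. Intercalated cells had 35.0% and 50.0% at P0 and 41.5%, 31.7% and 35.1% in adult, and podocytes 33.9% and 34.8% at P0 and 38.3%, 35.0% and 46.2% in adult. Endothelial nuclei stayed between 2.67% and 4.61%.

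The main Mme element was not at the annotated start of the gene but at +54.6 kb, over the starts of 4 other transcripts. It was open in 33.7% and 29.5% of PST nuclei at P0 and in 25.9%, 25.6% and 42.4% in adult, and in IC at P0 in 25.0% and 28.6%. The peak at the annotated start, Mme -0.1 kb, was instead led by LOH in all 5 samples, with 2.68% and 4.14% at P0 and 4.06%, 5.09% and 3.65% in adult. The intronic peaks +99.2 kb and +107.8 kb were mostly proximal, and at +107.8 kb the PST mean was 8.84% at P0 and 18.9% in adult.

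Agtr1a encodes the main mouse type 1 receptor, through which angiotensin II constricts vessels and raises sodium reabsorption. It was open in both stroma and proximal tubule. In Stroma 2 the shares were 42.8% and 45.7% at P0 and 35.4%, 40.6% and 32.6% in adult, and in PST they were 48.2% and 35.7% at P0 and 33.5%, 35.8% and 52.4% in adult, so that these 2 clusters did not separate. Per 10000 open calls Stroma 2 led in all 5 samples. PC had 24.4% and 25.4% at P0 but 5.83%, 3.76% and 8.49% in adult, and LOH 18.9% and 19.6% at P0 but 5.33%, 3.26% and 4.75% in adult.

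Different elements carried the stromal and the tubular signal. Agtr1a +28.6 kb led in Stroma 2 in all 5 samples, with 17.1% and 21.4% at P0 and 19.9%, 19.4% and 12.2% in adult, while the PST means were 1.20% and 1.24%. Agtr1a +32.0 kb also led in Stroma 2 throughout, with means of 8.38% and 5.24%, although it also lies in Gm48161. The peak +2.4 kb was proximal instead, with means of 14.3% in PST and 12.7% in PCT at P0 and of 18.3% and 15.5% in adult. The start peak +0.2 kb was open in both, and its highest mean was 18.0% in P0 PST.

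Agtr2, the type 2 receptor known for its fetal expression, held 1 peak, at the start of the gene, which was open in 104 nuclei of the whole series. In Stroma 1 it was open in 2.90% and 1.43% of nuclei at P0 and in 1.11%, 0% and 0% in adult. Per 10000 open calls the Stroma 1 values were 0.0523 and 0.0217 at P0 and 0.0340, 0 and 0 in adult. The stages thus overlapped in Stroma 1 once scaled for depth. In Stroma 2 the peak was open in 1.99% and 2.45% at P0 and in 0% in each adult sample. Per 10000 open calls the Stroma 2 values were 0.0274 and 0.0311 at P0 and 0 in each adult sample. Over the pooled nuclei it was open in 54 of 2454 Stroma 2 nuclei at P0 (2.20%, interval 1.66 to 2.86) and in 0 of 1085 in adult, which allows a share of up to 0.276%. In Stroma 1 it was open in 27 of 1181 at P0 and in 1 of 298 in adult. The gene did not pass the filter in any cluster, so stages were not tested.

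Mas1 encodes a receptor of angiotensin 1-7, a peptide with effects opposed to those of angiotensin II. PST had 42.2% and 27.7% at P0 and 14.3%, 17.0% and 34.7% in adult, and PCT had 23.0% and 17.4% at P0 and 18.8%, 17.8% and 20.8% in adult. PC had 22.3% and 20.9% at P0 and 7.77%, 9.02% and 13.7% in adult. Per 10000 open calls the PC values overlapped, with 0.340 and 0.274 at P0 and 0.147, 0.291 and 0.218 in adult, and the change did not pass the test (log2 -0.48, adjusted p = 0.145, edgeR). The nearest peak to the start, Mas1 -1.0 kb, was open in only 60 nuclei. The strongest peak, Mas1 +21.6 kb, was open in 26.5% and 20.5% of PST nuclei at P0 and in 7.89%, 9.89% and 18.5% in adult. All 4 Mas1 peaks inside the gene also lie in Airn, a long noncoding RNA gene that overlaps Mas1, and cannot be assigned to either.

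P0 was then compared with adult within each cluster by edgeR on open calls summed per sample, with BH adjustment over all genes or peaks tested in that cluster. A positive log2 change means higher in adult, per open call and not per nucleus, so that a share can fall where nuclei are shallower while the log2 change is positive. Over the 13 clusters, 61 tests of 7 of the genes gave 11 calls higher at P0 (18.0%) and 9 higher in adult (14.8%), against 14.2% and 11.1% of the 251964 gene tests made. Of the peaks, 50 were tested in at least 1 cluster and 21 in none. Their 130 tests gave 21 calls higher at P0 (16.2%) and 24 higher in adult (18.5%), against 18.0% and 16.0% of 488507 peak tests. The shares called were thus close to those of all genes and peaks.

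The direction of the calls differed by cluster. In LOH, 4 of 7 genes were higher at P0 and none in adult, where 52.1% of all genes were called in either direction, and the median log2 change of the 7 was -0.82 against -0.04 over all genes. In PC 2 of 6 were higher at P0 and in NP 2 of 3, against 29.7% and 39.4% of all genes called. In PCT and in PST 2 of 7 each were higher in adult, against 28.4% and 12.9%, and in Endo 2 of 5, against 25.3%. The stroma clusters were mixed, with 1 gene higher at each stage of 5 in Stroma 1 and 2 at each stage of 7 in Stroma 2, against 30.5% and 37.4% of all genes called. Podo, DCT, CNT and IC gave no call among their 3, 3, 5 and 3 genes tested, and no gene was tested in Immune. The share of all genes called was not counted in Podo, DCT, CNT and IC, so the lack of calls there cannot be read against it. Markers of mural cells also fell, with 7 of 8 tested falling and 1 rising in LOH, 4 of 5 falling in NP and 3 of 7 in PC, and 3 of 7 fell in CNT and 1 of 3 in DCT, where no member gene was called. Their summed shares were 130% and 150% at P0 and 34.5% to 56.5% in adult in LOH, 141% and 172% against 46.2% to 100% in NP, and 128% and 139% against 49.2% to 110% in PC. Markers of other cell types moved as well. In LOH all tested markers of nephron progenitors (2), podocytes (2), endothelium (3) and stroma (2) fell, among them Uncx (log2 -2.44), Cited1 (-1.33), Nphs1 (-2.08), Egfl7 (-1.53) and Pdgfrb (-1.22), while the loop markers Slc12a1 (2.08) and Umod (2.52) rose. The macula densa markers Nos1 (-1.90) and Ptgs2 (-1.96) and the mesangial markers Gata3 (-1.66) and Itga8 (-1.32) fell in LOH too. So did Trpv5 of CNT (-1.83) and the immune marker Ptprc (-0.70). None of the proximal (2), principal (1) and intercalated (1) markers tested in LOH was called. Of the distal tubule markers, Slc12a3 rose (2.10) and Pvalb fell (-1.80) in LOH. The summed shares in LOH went from 30.9% and 33.9% at P0 to between 4.20% and 5.58% in adult for the progenitor markers, from 16.4% and 20.7% to between 1.92% and 3.30% for the podocyte markers and from 56.7% and 59.7% to between 6.72% and 17.5% for the endothelial markers. In NP the cluster's own markers Cited1 (log2 -2.12) and Uncx (-1.19) fell, from summed shares of 41.4% and 49.9% to between 5.77% and 13.3%. The tubule markers Slc12a1 (1.19), Umod (1.80) and Slc12a3 (2.23) rose in NP, so that the nuclei placed in NP at P0 and in adult were not alike in these markers. The rise of Umod and Slc12a3 was not particular to NP. Both were also called higher in adult in many other clusters, among them Endo (2.38 and 1.04), Stroma 1 (3.14 and 2.26) and Stroma 2 (3.01 and 1.51). In PC Cited1 (-2.31), Nphs1 (-1.14) and 2 of the 3 endothelial markers fell, and the principal cell markers Aqp2 (1.95) and Fxyd4 rose. Markers of other tubule segments rose in PC as well, namely Umod (2.22), Slc34a1 (1.30), Trpv5 (1.01) and Slc12a1 (0.87). The part of such signal in the falls of the members was not tested.

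For the peaks, PCT had 5 calls higher at P0 and 8 in adult of 37 (33.9% of all peaks called), PST 1 and 2 of 27 (16.0%), and LOH 6 and 7 of 27 (54.3%). PC had 5 and 0 of 8 (29.4%), Endo 0 and 3 of 6 (31.4%), Stroma 1 had 1 and 0 of 3 (37.8%), and Stroma 2 had 3 and 4 of 14 (50.2%). LOH had calls in both directions among peaks but in 1 direction among genes.

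**Figure D4:**
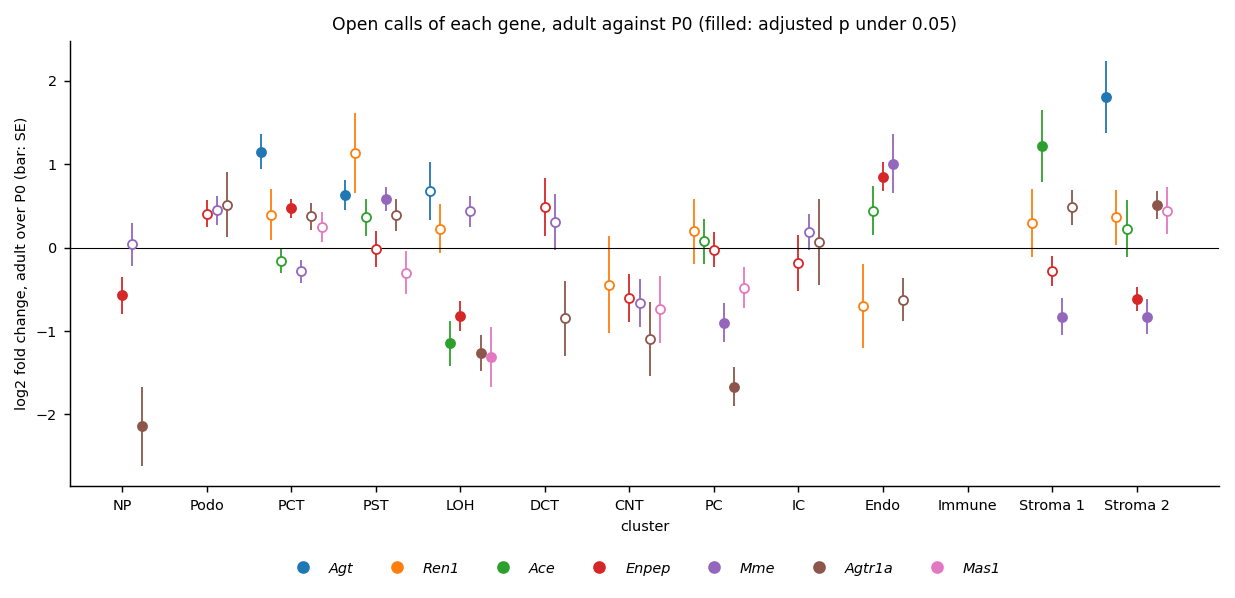
Log2 fold change of open calls, adult over P0, on the y axis, for each gene tested in each cluster on the x axis; points are edgeR estimates, bars 1 SE, and filled points have an adjusted p under 0.05. Agtr1a is at -2.14 in NP and -1.67 in PC but 0.51 in Stroma 2, and the 4 filled points in LOH are all below 0.

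Agt rose in adult in PCT (log2 1.15, SE 0.209, adjusted p = 0.00372), in PST (0.63, SE 0.177, adjusted p = 0.0371) and in Stroma 2 (1.81, SE 0.431, adjusted p = 0.00577). Proximal markers rose as well, Slc34a1 (0.82) and Slc5a2 (1.71) in PCT and Kap (2.75) in PST, where Slc34a1 was not called (-0.06). Per 10000 open calls the PCT values were 0.166 and 0.143 at P0 and 0.258, 0.310 and 0.362 in adult, without overlap. The element Agt -0.3 kb rose in PCT by 1.78 (SE 0.256, adjusted p = 0.000296), a call lost after thinning to 1000 open peaks (1.18, adjusted p = 0.0552). The intronic element Agt +2.3 kb rose in LOH (log2 1.82, SE 0.429, adjusted p = 0.000875, edgeR), from 0.0212 and 0.0238 per 10000 open calls at P0 to 0.0640, 0.0458 and 0.0913 in adult. Its shares of LOH nuclei overlapped, with 1.42% and 1.84% at P0 and 2.54%, 1.25% and 4.42% in adult, and the call was kept in 11 of 12 settings and lost by Fisher's exact test over nuclei (0.70). In Stroma 2 the shares of the gene were 1.30% and 1.14% at P0 and 2.43%, 2.06% and 2.33% in adult. There the proximal marker Slc34a1 also rose (log2 0.83, adjusted p = 0.0142), while the summed shares of the 3 proximal markers Slc34a1, Slc5a2 and Kap were 15.1% and 17.2% at P0 and 7.85% to 17.0% in adult. Of the markers of other tubule segments, Umod (3.01) and Slc12a3 (1.51) rose in Stroma 2 too, and Slc12a1 (0.58) was not called. The part of such signal in the Agt result was not tested. The PCT gene call was lost without P0 replicate 2 (1.05) and after thinning (1.19), the Stroma 2 call without either P0 replicate (1.97 and 1.62), and the PST call without P0 replicate 1 (0.78), P0 replicate 2 (0.54) or P56 replicate 2 (0.58). The PST call was also lost in DESeq2 (0.63), with a replicate block (0.63), with all clusters in one fit (0.69), after thinning (0.40) and with the gene body alone (0.90), that is in 8 of 14 settings. With the gene body alone, which leaves out the -0.3 kb peak, the PCT change was -0.63, and with 5 kb upstream the Stroma 2 change was -0.25.

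Ren1 had no call in its 8 gene tests, where log2 changes ran from -0.70 in Endo to 1.14 in PST (adjusted p = 0.318 and 0.140, edgeR). Its only tested window peak, +3.2 kb, had no call in 5 clusters.

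Ace fell in LOH (log2 -1.15, SE 0.270, adjusted p = 0.00457) and rose in Stroma 1 (1.21, SE 0.433, adjusted p = 0.0365). The start peak fell in LOH by 1.82 on the log2 scale (adjusted p = 0.000186), from 7.56% and 8.13% of nuclei to 1.27%, 0.864% and 0.994%, and in PCT by 0.94 (adjusted p = 0.00442). In the same PCT nuclei the peak +7.6 kb rose (log2 0.69, adjusted p = 0.0221), and the gene as a whole had -0.16 (adjusted p = 0.442). In PST the peak +15.3 kb rose (log2 4.20, SE 1.17, adjusted p = 0.0278), from a count of 1 open nucleus. In Stroma 1 Slc34a1 rose as well (log2 1.63), where the summed proximal markers were 11.9% and 13.6% at P0 and 9.35% to 35.6% in adult. Markers of other tubule segments rose there too, namely Umod (3.14), Slc12a3 (2.26) and Slc12a1 (1.23). The endothelial marker Pecam1 also rose in Stroma 1 (1.00), while Egfl7 (0.21) and Kdr (0.16) were not called. The part of such signal in the Ace result was not tested. The LOH call was lost without P0 replicate 1 (-1.08), the Stroma 1 call without P21 replicate 1 (1.19) or P56 replicate 2 (1.18), in DESeq2 (1.22) and with a replicate block (1.21), and the PCT start peak without either P0 replicate (-1.01 and -0.83), without a filter on low counts (-0.56) and with all clusters in one fit (-0.68). The PCT call of the peak +7.6 kb was lost without either P0 replicate (0.72 and 0.69) and after thinning (0.35, adjusted p = 0.642), and that of +15.3 kb in PST without P0 replicate 1 (8.47) or P0 replicate 2 (3.23).

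Enpep fell in LOH (log2 -0.82, SE 0.180, adjusted p = 0.00318), in Stroma 2 (-0.61, SE 0.143, adjusted p = 0.00520) and in NP (-0.57, SE 0.217, adjusted p = 0.0290), where the progenitor markers Cited1 (-2.12) and Uncx (-1.19) fell as well and Slc12a3 (2.23) and Umod (1.80) rose. It rose in Endo (0.85, SE 0.174, adjusted p = 0.00393) and PCT (0.47, SE 0.117, adjusted p = 0.0143). In Endo the share of nuclei went from 32.6% and 33.3% at P0 to 21.7%, 27.5% and 27.6% in adult, whereas the open calls per 10000 went from a mean of 0.635 to 1.1. The endothelial element +36.5 kb rose in Endo per open call (log2 1.22, SE 0.233, adjusted p = 0.000378), from 0.187 and 0.206 per 10000 at P0 to 0.286, 0.489 and 0.464 in adult, and +42.9 kb and the start peak rose there too (1.42 and 1.45). The endothelial markers Egfl7 (0.60), Pecam1 (0.59) and Kdr (0.59) also rose in Endo. Of other markers, Umod (2.38) and Slc12a3 (1.04) rose and Cited1 (-1.39) fell, and their part was not tested. The stromal element +45.6 kb fell in Stroma 2 (log2 -0.93, SE 0.252, adjusted p = 0.00362), a call lost without either P0 replicate (-1.02 and -1.06) and after thinning (-1.11). The podocyte element +10.8 kb had its calls elsewhere, falling in LOH (log2 -1.96), PST (-2.28) and PCT (-1.03), of which the PST and PCT calls were lost without either P0 replicate (-2.12 and -2.07, -1.33 and -0.65) and without a filter on low counts (-1.63 and -0.66), and the PCT call also in DESeq2 (-1.03) and with all clusters in one fit (-0.78). The gene calls in Stroma 2, Endo and PCT were lost without either P0 replicate, at -0.61 and -0.63, 0.78 and 0.87, and 0.49 and 0.45. The LOH call was lost without P0 replicate 1 (-0.59) and after thinning (-0.89), the PCT call also after thinning (0.40), and the NP call without any 1 of 4 samples (-0.66 to -0.31), in DESeq2 (-0.58) and with all clusters in one fit (-0.56). Without P0 replicate 1 the calls of +36.5 kb (1.05) and the start peak (1.14) in Endo were lost. With all clusters in one fit those of +36.5 kb (0.92) and +42.9 kb (1.14) were lost, and by Fisher's exact test over nuclei, whose shares are not scaled for depth, those of all 3 were (-0.13 for +36.5 kb, 0.02 for +42.9 kb and 0.07 for the start peak).

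Mme fell in Stroma 2 (log2 -0.83, SE 0.205, adjusted p = 0.00701), Stroma 1 (-0.83, SE 0.225, adjusted p = 0.00736) and PC (-0.90, SE 0.239, adjusted p = 0.0107). It rose in PST (0.58, SE 0.144, adjusted p = 0.0236) and, at low shares, in Endo (1.00, SE 0.352, adjusted p = 0.0498). In PC the shares were 29.7% and 34.6% at P0 and 16.5%, 10.5% and 11.3% in adult. The main element +54.6 kb fell in PC by 1.16 on the log2 scale (adjusted p = 0.00881), while the PST peak +107.8 kb rose in PST (1.31, adjusted p = 0.0163), and +110.5 kb fell in PCT (-2.69, adjusted p = 0.00110). In LOH 6 Mme peaks rose, among them the start peak -0.1 kb (log2 1.53, adjusted p = 0.000904, lost by Fisher's exact test over nuclei at 0.34) and +135.8 kb (2.26), and the gene as a whole had 0.43 (adjusted p = 0.0693). Of the other 4, the call of +56.6 kb was kept in 3 of 12 settings and that of +74.1 kb in 5 of 11, and both were lost in DESeq2. The Stroma 2, PST and PC gene calls were lost without either P0 replicate (-0.72 and -0.87, 0.58 and 0.65, -0.89 and -0.88), the PST call also after thinning (1.21), and the PC call also without P56 replicate 2 (-0.54), in DESeq2 (-0.85), without a filter on low counts (-0.89) and after thinning (-1.08). The Stroma 1 call was lost without P0 replicate 1 (-0.74) or P21 replicate 1 (-0.70) and in DESeq2 (-0.86). The Endo call was kept in 5 of 13 settings and lost without any 1 of 4 samples (0.75 to 1.20), in DESeq2 (1.01), with a replicate block (1.05), with the gene body alone (0.99) and with 5 kb upstream (1.01). The call of +54.6 kb in PC was lost without P0 replicate 1 (-1.12), P0 replicate 2 (-1.17) or P56 replicate 2 (-0.47), in DESeq2 (-1.03) and without a filter on low counts (-1.23), that of +107.8 kb in PST without either P0 replicate (1.49 and 1.38), and that of +110.5 kb in PCT without P0 replicate 1 (-2.15).

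Agtr1a had the 2 largest falls among the called gene tests, in NP (log2 -2.14, SE 0.475, adjusted p = 0.000167) and PC (-1.67, SE 0.230, adjusted p = 0.000118), and also fell in LOH (-1.27, SE 0.219, adjusted p = 0.000766). It rose in Stroma 2 (0.51, SE 0.166, adjusted p = 0.0277). The PC and LOH calls held in every setting tried. Among its peaks, +24.8 kb fell in PC (-1.81) and LOH (-1.31), and the start peak in PC (-2.13) and LOH (-1.43). In Stroma 2 the stromal elements diverged. The element +28.6 kb rose per open call (log2 0.78, SE 0.199, adjusted p = 0.00208) although its share of nuclei was 17.1% and 21.4% at P0 and 12.2% to 19.9% in adult, and +22.4 kb rose (1.95, adjusted p = 0.00121). The peak +8.0 kb fell (-2.35, SE 0.564, adjusted p = 0.00124), from 6.57% and 4.37% of nuclei at P0 to 0%, 0.561% and 0.872% in adult. The NP values rest on the few adult nuclei given above, of which 0 of 52 and 0 of 90 were open at P21 and in P56 replicate 1, so that the value was -9.79 without P56 replicate 2, -1.66 without P21 replicate 1 and -1.47 without P56 replicate 1, and the call was lost in DESeq2 (-2.29). The Stroma 2 gene call was also lost in DESeq2 (0.51) and with all clusters in one fit (0.47), and its value was 0.28 without P56 replicate 1. It was lost without either P0 replicate (0.57 and 0.42), as were those of +22.4 kb (1.76 and 1.90) and +28.6 kb (0.59 and 0.79). The call of +28.6 kb was also lost without a filter on low counts (0.41), after thinning (0.83) and with all clusters in one fit (0.53), and its direction was the opposite by Fisher's exact test over nuclei (-0.15). The PC call of +24.8 kb was lost without P0 replicate 1 (-1.76) and without a filter (-1.90). That of the start peak in PC was lost without P0 replicate 1 (-2.04), P0 replicate 2 (-2.20) or P56 replicate 2 (-1.76) and without a filter (-2.21). In the same 3 clusters the mural markers moved unevenly. Rgs5, a pericyte gene, fell in NP (log2 -1.41), PC (-1.51) and LOH (-2.35), but Tagln rose in LOH (0.88), Notch3 had no call in NP (0.33) or PC (-0.16), and 4 of the 7 tested in PC were not called. The progenitor marker Cited1 also fell in NP (-2.12), PC (-2.31) and LOH (-1.33), and the proximal marker Slc34a1 rose in NP (0.77) and PC (1.30).

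Mas1 fell in LOH (log2 -1.31, SE 0.359, adjusted p = 0.0101), where shares were 11.5% and 8.44% at P0 and 2.28%, 1.82% and 1.88% in adult. The peak +21.6 kb fell in LOH (-2.52, SE 0.471, adjusted p = 7.78e-05) and in PC (-1.09, SE 0.334, adjusted p = 0.0156), and the proximal peak +8.8 kb rose in PCT (1.13, SE 0.239, adjusted p = 0.00318). The gene call was lost without P0 replicate 1 (-0.85), the PC peak call without P0 replicate 1 (-0.90), P21 replicate 1 (-0.79) or P56 replicate 2 (-0.90), in DESeq2 (-1.13, adjusted p = 0.0714) and without a filter on low counts (-1.18), and the PCT peak call without either P0 replicate (1.21 and 1.09) and after thinning (0.50, adjusted p = 0.538).

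Whether the stage effect of a gene differed between clusters was tested in 1 model over the 65 sums, with the sample as a block. The difference was called for 6 of the 7 genes tested, all but Ren1 (F = 1.19, adjusted p = 0.367, edgeR), against 57.6% of 27681 genes.

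The other peaks between 2 and 5 kb upstream were read in the same fit, outside the rule. Agt -2.4 kb rose in PCT (log2 2.56, SE 0.483, adjusted p = 0.00159), from 0.914% and 1.08% of nuclei to 2.97%, 3.17% and 7.96%. Ace -4.7 kb fell in PCT (-4.67, SE 0.670, adjusted p = 0.000289), Mas1 -4.2 kb fell in LOH (-2.11, adjusted p = 0.00257), and Enpep -4.1 kb rose in Endo (2.45, adjusted p = 0.0105). Ace -4.7 kb was open in only 23 PCT nuclei, with shares of 1.65% and 1.97% at P0 and 0%, 0.0407% and 0.0870% in adult. The size of its fall thus rests on very low adult counts. Mas1 -4.2 kb was open in 51 LOH nuclei, with 3.31% and 3.37% at P0 and 0%, 0.384% and 0.442% in adult. The shares of Endo nuclei with Enpep -4.1 kb open were 0.676% and 1.21% at P0 and 2.71%, 2.81% and 0.232% in adult, so that P56 replicate 2 lay below both P0 samples. The Mas1 call was lost without P0 replicate 1 (-2.13) the Enpep call without either P0 replicate (1.87 and 2.80) and in DESeq2 (2.40, adjusted p = 0.0714), and the Agt call after thinning (1.90). Agt -4.1 kb had no call in 5 clusters, though its share in Stroma 2 was 13.3% and 12.2% at P0 and 3.88% to 5.52% in adult. Ren1 -4.7 kb and Agtr2 -2.5 kb were too low in counts for the test. In Stroma 1 the former was open in 0.435% and 0.815% of nuclei at P0 and in 1.11%, 1.87% and 2.97% in adult. The latter was open there in 4.49% and 3.05% at P0 and in 1.11%, 0% and 0.990% in adult.

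A list of 17 further genes of the pathway was read beside the 8, other angiotensin-cleaving peptidases, kallikrein, a second type 1 receptor gene and receptor-associated proteins. Of these, 16 had a peak and 13 were tested in at least 1 cluster. Their 144 tests gave 12 calls higher at P0 (8.33%) and 10 higher in adult (6.94%), both below the shares over all genes. Klk1, tissue kallikrein, rose in CNT (log2 3.66, SE 0.375, adjusted p = 1.05e-05), from 2.22% and 5.94% of nuclei to 31.3%, 18.0% and 47.4%, and in LOH (3.08, SE 0.265, adjusted p = 2.02e-05). Agtr1b, the other mouse type 1 receptor gene, fell in Stroma 2 (-1.66, SE 0.286, adjusted p = 0.000721), from 18.9% and 16.0% of nuclei to 3.40%, 3.74% and 2.03%. It was also called lower in LOH (-2.24) and Stroma 1 (-1.21). Agtr1a rose in Stroma 2 per open call only, while its mean share of nuclei was 44.2% at P0 and 36.2% in adult. That Agtr1a call was lost in 4 of 14 settings. Prep, a prolyl peptidase, fell in NP (-0.92, SE 0.216, adjusted p = 0.000351). Anpep, which encodes aminopeptidase N, fell in PC (-1.22, SE 0.280, adjusted p = 0.00442), from 21.8% and 31.4% of nuclei to 16.5%, 3.38% and 12.3%.

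The genes whose normalised open calls, on a log2 scale, were most alike over the 65 sums of 5 samples and 13 clusters were listed by Pearson's r. These sums share libraries and depth, so r is a description. They were Gm32872 (0.84) and Gm13207 (0.81) for Agt, Nrg4 and Gm47935 (both 0.80) for Ace, Uaca (0.84) and Gm15346 (0.82) for Enpep, and Epb41l5 (0.85) and Gm42303 (0.82) for Mme. For the receptors they were Gm10248 (0.81) and Cspg4 (0.79) for Agtr1a, Vill (0.80) and Gm44434 (0.79) for Mas1, and Naip3 (0.70) and 4930543N07Rik (0.69) for Agtr2. For Ren1 the highest values were lower, with AC126937.2 (0.54) and Cd248 (0.54).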

How the data were processed

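snATAC-seq reads were aligned and quantified by the authors with Cell Ranger ATAC 1.1.0 on mm10, and nuclei were clustered with SnapATAC on binned fragments after Harmony correction over samples. The authors called peaks with MACS2 on the fragments of each cell type with all samples pooled, merged them, and deposited a binarized matrix of counts, in which 1 marks a nucleus with a fragment in the peak. The deposited peak positions entered as score columns in bp and only located the peaks. Because peaks were called on pooled samples, they are the same in every sample.

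From these files, each gene was given the peaks overlapping its body plus 2 kb upstream, and open calls were summed per cluster and sample, leaving out sums under 20 nuclei. P0 was compared with adult by the quasi-likelihood test of edgeR 4.0.16 (R 4.3.3, filterByExpr, TMM, two-sided, BH at 0.05), with SE taken as the log2 change over the root of F. Nuclei and open calls per sample ranged from 3361 to 7129 and from 16980853 to 43794155. Intervals are exact binomial at 95%, the limit for a count of 0 is 3 counts, and both cover counting error only. The steps were tested on simulated data.

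The peaks given in full were, for each gene, the one over or nearest its start, the one with the highest mean share and up to 3 called with the smallest adjusted p, and of the pathway list the 4 called genes with the smallest adjusted p. Other peaks named were chosen after their values were seen. The genes and lists were chosen with earlier results of these data known. Alternatives were DESeq2 1.42.0, its size factors, no filter, at least 50 nuclei, a replicate block, each sample left out, nuclei thinned to 1000 open peaks, all clusters in one fit, other windows and Fisher's exact test over nuclei. Fisher's test pooled the nuclei of a stage and took them as replicates, which they are not. Its p-values do not measure the spread between samples, though it is counted among the settings of the peaks. Doublets were not searched for here, and the single-cell RNA files were not used here.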

Additional observations from a re-analysis of the deposited data

Results flagged for a closer look

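The change from P0 to adult differed between clusters for 6 of the 7 genes tested, by the edgeR test of the cluster-by-stage terms over 65 sums. The same test called 57.6% of 27681 genes. Each of the 6 is given as a value. Agtr1a (adjusted p = 2.18e-11) ran from -2.14 in NP to 0.51 in Stroma 2 on the log2 scale among its called clusters. Enpep (adjusted p = 3.02e-11) ran from -0.82 in LOH to 0.85 in Endo, and Mme (adjusted p = 1.65e-08) from -0.90 in PC to 1.00 in Endo. Mas1 (adjusted p = 5.85e-05) had its only called gene test in LOH, at -1.31. Ace (adjusted p = 0.000343) had -1.15 in LOH and 1.21 in Stroma 1, and Agt (adjusted p = 0.00314) had 0.63 in PST and 1.81 in Stroma 2. The settings numbered 11, with the reported one counted among them. Enpep, Mme and Agtr1a had the call in all 11, Ace and Mas1 in 10 (highest adjusted p = 0.0691 and 0.287) and Agt in 7 (highest adjusted p = 0.926). Ren1 was called in 1 of 11, with 5 kb upstream (adjusted p = 0.00417).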

How the results depend on the processing

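Of the values for called genes under the alternatives, 207 kept direction and call, 60 lost the call and 2 reversed, and for 17 of the 45 calls of window peaks the numbers were 209, 29 and 1. These 17 were, for each gene, up to 3 calls with the smallest adjusted p. Among the calls not counted, Agtr1a +2.4 kb in Stroma 2 was kept in 5 of 12 settings and the Agtr1a start peak in LOH in all 12. The setting of at least 50 nuclei left the called fits as they were, and a change of window cannot alter the fit of a single peak. Such values, where counted, kept the call by construction. The reversed values were Agt in PCT with the gene body only (-0.63, a window that leaves out the -0.3 kb peak), Agt in Stroma 2 with 5 kb upstream (-0.25, a window that adds the -2.4 kb and -4.1 kb peaks) and Enpep +36.5 kb in Endo by Fisher's exact test over nuclei (-0.13, a test on shares not scaled for depth). Among the other called peaks that test also reversed Agtr1a +28.6 kb in Stroma 2 (-0.15) and Mme +56.6 kb in LOH (-0.33). Peak calls higher at P0 and in adult, 21 and 24 as reported, became 39 and 41 without a filter on low counts and 1 and 1 after thinning to 1000 open peaks, where 22 tests were left. Calls higher at P0 became 33 with all clusters in one fit and 60 by Fisher's exact test. The latter takes nuclei as replicates, so its count does not reflect the spread between samples. Leaving out 1 sample gave 6 to 37 and 8 to 32. Gene calls, 11 and 9 as reported, became 7 and 5 with DESeq2 and 4 and 2 after thinning (25 tests), and those higher in adult became 14 without a filter. Leaving out 1 sample gave 3 to 18 and 1 to 13. The genes whose stage effect differed between clusters, 6 as reported, ranged from 4 to 7, and the genes led by 1 cluster in all samples, 3 as reported, from 2 to 4. With a replicate block the peak calls were 21 and 23 and the gene calls 13 and 6, but the labels do not say that same-numbered samples are pairs. Same-numbered samples correlated at 0.045 to 0.207 over the 13 clusters, and with 2 pairs this cannot decide whether they are. Ren1 +0.2 kb and Agtr2 +0.2 kb had too few open nuclei for a test.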
